A study of Mus musculus with 4 samples.

Results

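Cathepsins, legumain and cystatin C are the proteases of the lysosome and the inhibitor that meets several of them outside the cell. 10 genes were followed, chosen by name: the papain-like cysteine cathepsins Ctsb, Ctsc, Ctsh, Ctsl, Ctss and Ctsz, the aspartic cathepsin Ctsd, the serine carboxypeptidase Ctsa, the asparaginyl endopeptidase Lgmn (legumain), and Cst3 (cystatin C). They are 10 of the 41862 gene columns of the count tables, and the first 9 are called the proteases below. The values come from 4 single-cell RNA libraries of the mouse central nervous system, made by inDrops version 3, in which each captured RNA molecule carries a unique molecular identifier (UMI). All mice were C57BL6 with the Aldh1l1CreERT2-TdTomato reporter, in which the promoter of the astrocyte gene Aldh1l1 drives a tamoxifen-dependent Cre that switches on TdTomato. TdTomato+ cells were sorted for surface LAMP1, a lysosomal membrane protein, and split by surface TRAIL, the death ligand encoded by Tnfsf10. The mice were naive, or they had experimental autoimmune encephalomyelitis (EAE) at its peak phase, a model of multiple sclerosis induced with 150 µg of the myelin peptide MOG35-55 in complete Freund's adjuvant. Crossing the 2 states with the 2 gates gave 4 groups of 1 library each, named here by state and gate, from a series of 3 naive and 3 EAE mice. The sources used here do not give ages, the tamoxifen schedule or the pooling of animals.

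The lysosomal cathepsins are made as inactive precursors, carried to the lysosome mainly by the mannose 6-phosphate pathway and activated there by acid and by each other. Microglia, the resident macrophages of the brain, use them to degrade what they engulf and to cut the invariant chain Cd74 from class II antigen-presenting molecules, a step in which cathepsin S has a leading role. Cystatin C is a secreted protein that blocks papain-like cathepsins tightly and, through a separate site, legumain; it does not block the aspartic cathepsin D or the serine carboxypeptidase A. Some cells can also release lysosomal enzymes, and surface LAMP1 is a sign of lysosomes that have fused with the plasma membrane.

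In microglia-like barcodes, Cst3 was lower in EAE than in naive mice in both TRAIL gates, and most of the protease genes were above their naive level. At least 1.5-fold higher were 3 of the 9 proteases in TRAIL+ and 6 in TRAIL-. Of all genes compared, 8.54% were that much higher in TRAIL+ and 19.1% in TRAIL-. The 9 proteases together had 0.630 UMIs per Cst3 UMI in the TRAIL- library and 0.590 in the TRAIL+ library of naive mice, but 2.26 (TRAIL-) and 1.41 (TRAIL+) in EAE. Both EAE ratios were above 1 and both naive ratios below it. Monocyte-like barcodes of EAE had 9.31 (TRAIL-) and 6.76 (TRAIL+) protease UMIs per Cst3 UMI, and astrocyte-like barcodes of the naive TRAIL+ library had 0.333. With 1 library per group there is no replicate check and no test, so each difference below is between libraries. Animals, sort and library preparation cannot be told apart from the condition.

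The deposited tables listed 12987 barcodes with 2856696 to 3984975 UMIs per library. At least 500 UMIs and at most 20% mitochondrial (mt-) UMIs left 2259 TRAIL- and 2229 TRAIL+ barcodes of naive mice, and 1597 TRAIL- and 1814 TRAIL+ barcodes of EAE mice. Median depth was 949, 1505, 1191 and 1908 UMIs in that order, which is kept wherever 4 values follow each other. The 10 genes held 1.01%, 4.14%, 1.31% and 3.45% of the UMIs kept. Between 23 and 40 kept barcode sequences were shared by any 2 libraries. Although the labels call the cells astrocytes, the 17 listed astrocyte markers summed to 487 to 2602 UMIs per 1000000 (CPM) in the 4 libraries, against 6854 to 32995 for the 16 listed microglia markers. Microglia-like barcodes made up 14.1%, 84.5%, 19.2% and 89.9% of the libraries, and astrocyte-like barcodes 1.55%, 6.42%, 0.188% and 0.441%. Endothelial-like and pericyte-like barcodes (the latter named from markers of pericytes or smooth muscle) were most of both TRAIL- libraries. The TRAIL gate therefore moved with cell type, and comparisons are made within a class of barcodes.

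Levels are UMIs of a class in a library, summed and given in CPM, with exact Poisson 95% intervals that cover counting error only. Because inDrops counts molecules near their 3′ end, CPM is not divided by gene length. A ratio of protease to Cst3 UMIs is compared between classes and libraries and is not a ratio of proteins. Classes carry the ending -like because they were rebuilt from marker genes, without using any of the 10 genes or the related genes listed here. A gene is called higher or lower when its CPM differed at least 1.5-fold, and the share of all genes of at least 50 CPM called in the same way is given beside the first count.

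The 10 genes lie on 7 mouse chromosomes. In GENCODE vM21, on GRCm38, Cst3 spans chr2:148871722-148875692 on the minus strand, Ctsb chr14:63122462-63145923 on the plus strand, Ctss chr3:95526786-95556403 on the plus strand and Ctsd chr7:142375911-142388038 on the minus strand. The whole genes, exons and introns, are given. Ctsa overlaps Pltp on the opposite strand, and its level is uncertain because the sources used here do not say whether counting used strand: Pltp had 5137 UMIs against 3877 for Ctsa. The genes that share exonic sequence with Ctsb (Fdft1, 294 UMIs) and Ctsd (Gm49369, 165 UMIs) had 0.708% and 0.555% of the member's UMIs.

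Promoters are shown because many lysosomal genes carry the E-box CACGTG, the core of the element bound by the TFEB family. The sequences printed were picked with the EAE values known. RefSeq promoters of 300 bases (250 before the start and 50 after it, GRCm38.p6) were matched by symbol for 8 of the 10 genes. CACGTG, which reads the same on both strands, was found in 4 of the 10 promoters matched, those of Ctsd and Ctsl and a promoter each of Ctsa and Lgmn. Ctsa and Lgmn each had another promoter without a match. Of all 32851 promoters in the table, 7.15% hold CACGTG. A longer palindrome that contains CACGTG, an exact form of the element known as CLEAR, was in none of the 10 promoters matched and in 0.326% of all. Only its exact letters were searched. Sequences 1 base away from it, such as the second match of Ctsd, were not counted. Whether these promoters hold another form of CLEAR was not tested. The promoters of Cst3, Ctss, Ctsc and Ctsz had no CACGTG in this window. In EAE microglia-like barcodes Cst3 was below its naive level, but Ctss, Ctsc and Ctsz were above theirs. Lgmn, which has a match, was also below its naive level. A link between the motif and the level was not tested. Below are Ctsd (chr7:142387778-142388077, minus strand), with 2 matches, the first beginning 245 bases before the start, an alternative promoter of Lgmn (chr12:102439043-102439342, minus strand), with 1 match 49 bases before the start, and Cst3 (chr2:148875463-148875762, minus strand). Capitals mark CACGTG, and a match is a description of letters, not a site.
Ctsd: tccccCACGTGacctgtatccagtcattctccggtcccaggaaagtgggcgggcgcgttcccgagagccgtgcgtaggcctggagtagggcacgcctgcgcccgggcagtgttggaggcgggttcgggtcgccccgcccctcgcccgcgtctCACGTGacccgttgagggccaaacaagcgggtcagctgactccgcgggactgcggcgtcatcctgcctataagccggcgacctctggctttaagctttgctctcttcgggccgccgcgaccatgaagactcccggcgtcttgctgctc
Lgmn: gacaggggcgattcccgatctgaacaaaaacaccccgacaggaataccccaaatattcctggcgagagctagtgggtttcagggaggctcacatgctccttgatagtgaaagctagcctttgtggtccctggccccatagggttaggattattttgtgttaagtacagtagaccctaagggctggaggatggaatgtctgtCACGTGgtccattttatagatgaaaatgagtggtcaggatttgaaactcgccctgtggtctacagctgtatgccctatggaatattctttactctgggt
Cst3: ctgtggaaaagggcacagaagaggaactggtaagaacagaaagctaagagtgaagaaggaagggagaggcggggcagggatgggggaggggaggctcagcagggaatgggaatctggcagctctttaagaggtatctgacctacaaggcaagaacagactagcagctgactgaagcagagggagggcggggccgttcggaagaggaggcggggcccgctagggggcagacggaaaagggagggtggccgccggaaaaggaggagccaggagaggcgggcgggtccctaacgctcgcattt

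Cst3, the inhibitor, was called lower in EAE in microglia-like barcodes of both gates. Its level was 23685 CPM (11927 UMIs) in TRAIL- and 28665 CPM in TRAIL+ barcodes of naive mice, against 9592 CPM (5831 UMIs) and 15105 CPM in those of EAE mice. Both naive libraries were above both EAE libraries. The level in EAE was 0.527 times that in naive mice in the TRAIL+ libraries (95% counting interval 0.521 to 0.533) and 0.405 times in the TRAIL- libraries (0.392 to 0.418). The difference was also seen barcode by barcode: with every barcode thinned to 500 UMIs, the median barcode held 11.5, 13, 4 and 7 Cst3 UMIs. Barcodes without a Cst3 UMI at that depth were 1.26% and 0.0531% of the naive TRAIL- and TRAIL+ sets, and 11.8% and 2.27% of the EAE sets. The summed level of the microglia markers was closer between conditions, at 0.929 times the naive level in TRAIL+ and 0.843 times in TRAIL-; their part in the Cst3 difference was not tested. Microglia-like barcodes with under 1% of UMIs in those markers numbered 4, 4, 36 and 12 in the same order of libraries. Without them the log2 difference of Cst3 was -0.92 in TRAIL+ and -1.24 in TRAIL-, beside -0.92 and -1.30 with them.

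**Figure D1:**
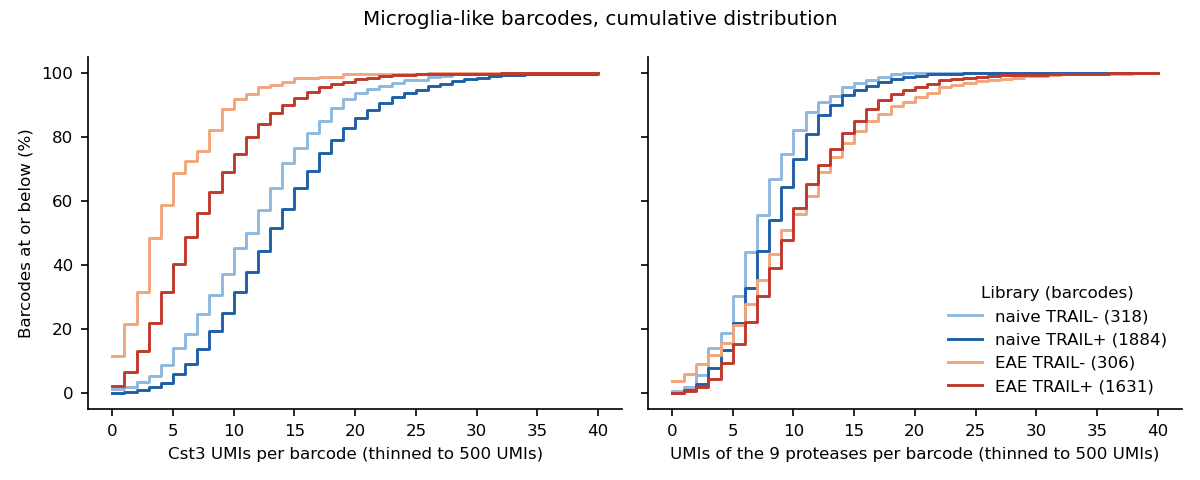
Cumulative share of microglia-like barcodes (vertical axis, percent) with at most the number of UMIs on the horizontal axis, for Cst3 (left) and the 9 proteases summed (right), after thinning every barcode to 500 UMIs; each line is a library. The Cst3 curves of both EAE libraries rise before those of the naive libraries, with medians of 4 and 7 against 11.5 and 13 UMIs, while the protease curves lie closer together.

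Among the papain-like cathepsins, Ctsz (cathepsin Z, a carboxypeptidase) differed most between conditions. It had 278 CPM (TRAIL-) and 332 CPM (TRAIL+) in naive mice, against 706 and 651 CPM in EAE, and both EAE values were above both naive values. The ratio of EAE to naive was 1.96 (1.82 to 2.12) in TRAIL+ and 2.54 (2.09 to 3.09) in TRAIL-. Ctsc, the dipeptidyl peptidase that activates granule serine proteases, had 616, 662, 1276 and 1087 CPM, ratios of 2.07 (1.82 to 2.37) in TRAIL- and 1.64 (1.55 to 1.73) in TRAIL+. Ctsh, an aminopeptidase, had 308, 340, 569 and 554 CPM, ratios of 1.85 (1.53 to 2.25) and 1.63 (1.51 to 1.76). These 3 genes were called higher in EAE in both gates.

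Ctss, Ctsb and Ctsl passed the fold for a call in TRAIL- but not in TRAIL+; the difference between gates was not tested. Ctss, the cathepsin that trims the invariant chain and stays active at neutral pH, had 3517 and 4297 CPM in the naive and 5902 and 5528 CPM in the EAE libraries. Its ratio of EAE to naive was 1.68 (1.58 to 1.78) in TRAIL- and 1.29 (1.26 to 1.32) in TRAIL+. Ctsb, an endopeptidase and dipeptidyl carboxypeptidase of most cells, had 3249, 3801, 5414 and 4934 CPM in the same order, with ratios of 1.67 (1.57 to 1.77) and 1.298 (1.27 to 1.33). Ctsl, an endopeptidase of lysosomal protein turnover, had 713, 744, 1100 and 1063 CPM, with ratios of 1.54 (1.36 to 1.76) and 1.43 (1.35 to 1.51). For each of the 6 papain-like genes both EAE libraries were above both naive libraries.

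The proteases of other classes were not called in either gate. In TRAIL- each differed less than every papain-like gene, but in TRAIL+ Ctsd differed more than Ctss and Ctsb. Ctsd, the main aspartic protease of lysosomes, had 2685, 3107, 3438 and 4150 CPM, ratios of 1.28 (1.20 to 1.37) in TRAIL- and 1.34 (1.301 to 1.37) in TRAIL+, under the fold for a call. Ctsa, the carboxypeptidase that also protects beta-galactosidase and neuraminidase 1, had 290, 367, 396 and 460 CPM and ratios of 1.37 (1.11 to 1.69) and 1.25 (1.16 to 1.35), with the overlap with Pltp given above. Lgmn, which cuts after asparagine and processes other cathepsins, had 3257, 3274, 2892 and 2904 CPM, and its ratio of EAE to naive was 0.888 (0.830 to 0.9503) in TRAIL- and 0.887 (0.863 to 0.912) in TRAIL+. Legumain was the single protease below its naive level, and it missed the fold for a call.

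Over the 10 genes, 3 were called higher and 1 lower in EAE TRAIL+ microglia-like barcodes, against 8.54% of 3210 genes called higher and 5.51% called lower. In the TRAIL- libraries 6 were called higher and 1 lower, against 19.1% of 3259 genes called higher and 21.5% lower. Median log2 ratios of the 10 genes were 0.40 in TRAIL+ and 0.68 in TRAIL-, beside -0.05 and -0.09 over all genes compared. TMM scaling, computed over all classes together, moved the median of all genes in the TRAIL+ comparison to -0.21 and left 1 gene called higher (Ctsz) and 1 lower (Cst3), with 4.54% of all genes higher and 13.4% lower. Counts were unequal in depth, since the TRAIL- sums rest on 318 naive and 306 EAE barcodes and the TRAIL+ sums on 1884 and 1631.

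**Figure D2:**
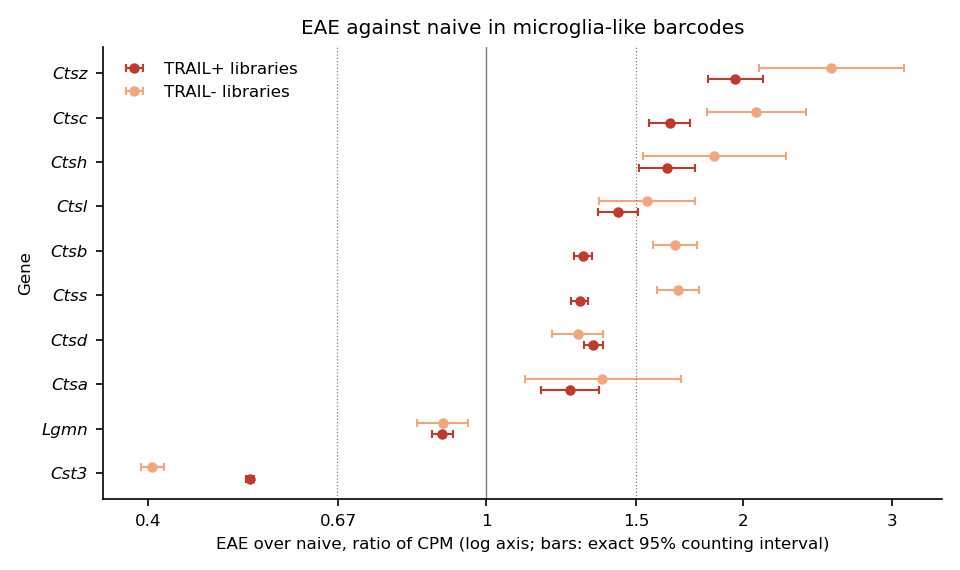
Ratio of CPM in EAE to CPM in naive mice (horizontal log axis) for each gene (vertical axis) in microglia-like barcodes of the TRAIL+ and TRAIL- libraries, with exact 95% counting intervals as bars; dotted lines mark 1.5-fold in either direction. Cst3 lies at 0.527 and 0.405, Lgmn at 0.887 and 0.888, and the other 8 genes above 1, up to 1.96 and 2.54 for Ctsz.

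The protease to Cst3 ratio joins both directions of difference. In microglia-like barcodes it was 2.39 times higher in EAE than in naive mice in TRAIL+ (2.35 to 2.43) and 3.59 times higher in TRAIL- (3.44 to 3.75). Cst3 made up the greater part of the difference in both gates: summed protease CPM was 1.26 (1.25 to 1.27) times the naive level in TRAIL+ and 1.45 (1.41 to 1.497) times in TRAIL-, while Cst3 was 1.90 and 2.47 times lower. Each protease on its own had a higher ratio to Cst3 in EAE, from 1.68 (Lgmn) to 3.72 times (Ctsz) in TRAIL+ and from 2.19 (Lgmn) to 6.27 times (Ctsz) in TRAIL-. For the cathepsins that cystatin C blocks, the 6 papain-like genes, the ratio was 0.366, 0.355, 1.56 and 0.915. Their share of all protease UMIs was 58.2%, 60.1%, 69.0% and 64.8% in that order, and the share of Lgmn was 21.8%, 19.3%, 13.3% and 13.6%.

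The TRAIL gate was compared within microglia-like barcodes of the same condition. In naive mice no gene of the 10 was called, with 3.02% of 3175 genes called higher in TRAIL+ and 6.77% lower, and ratios of TRAIL+ to TRAIL- from 1.01 (0.954 to 1.06) for Lgmn to 1.27 (1.06 to 1.51) for Ctsa. With TMM scaling the median of all genes moved from -0.03 to 0.33 on the log2 scale, 5 of the 10 genes (Ctsa, Ctsb, Ctss, Ctsz and Cst3) were called higher, and so were 21.8% of all genes, with 1.49% lower. In EAE, Cst3 was called higher in TRAIL+, at 1.57 times (1.53 to 1.62) the TRAIL- level, with 6.63% of 3227 genes called higher and 8.92% lower (16.7% and 4.204% with TMM). That call was lost when barcodes with under 1% microglia marker UMIs were left out, at a log2 difference of 0.58 in place of 0.66. The other 9 genes were between 0.852 (Ctsc) and 1.21 (Ctsd) times; of the 6 below 1, only Ctsc stayed below 1 with TMM. The protease to Cst3 ratio of TRAIL+ was 0.938 times (0.909 to 0.967) that of TRAIL- in naive and 0.624 times (0.604 to 0.645) in EAE mice.

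Microglia-like barcodes were not one set of cells. They fell into 3 clusters, of which one was led by immune genes (C4b, Hcar2, H2-Q7 and Cd74 among the first) and held 7 of 318, 34 of 1884, 189 of 306 and 661 of 1631 barcodes. In EAE TRAIL+ the ratio of protease to Cst3 was 2.11 (2.07 to 2.15) in the immune-led cluster and 1.08 (1.06 to 1.09) in the other microglia-like clusters; in EAE TRAIL- it was 2.93 (2.81 to 3.05) and 1.44 (1.37 to 1.51). Cst3 was 0.616 times the level of the other clusters in TRAIL+ and 0.604 times in TRAIL-, and Ctsc 1.76 (1.64 to 1.88) and 1.53 (1.30 to 1.81) times. Ctsb was 1.39 and 1.54 times, and Ctsz 1.32 and 1.51 times, the level of the other clusters. Of the 10 genes, 1 was called higher and 1 lower in TRAIL+, with 7.06% of all genes higher and 5.46% lower, and 3 higher and 1 lower in TRAIL-, with 17.8% and 20.3%. Lgmn did not separate the clusters, at 1.03 (0.990 to 1.07) and 0.926 (0.839 to 1.02) times.

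The difference in Cst3 between conditions was not held by the immune-led cluster alone. In the other microglia-like clusters Cst3 was 23847 (TRAIL-) and 28791 CPM (TRAIL+) in naive mice, against 13068 and 18161 CPM in EAE, ratios of EAE to naive of 0.548 (0.525 to 0.572) and 0.631 (0.623 to 0.639). Ctsh and Ctsz were called higher in both gates there, with 5.27% of genes called higher and 4.33% lower in TRAIL+ and 21.8% and 21.0% in TRAIL-. Ctsz was 1.73 times (1.58 to 1.88) the naive level in TRAIL+ and 1.90 times (1.46 to 2.46) in TRAIL-. Ctsa, Ctsc and Ctsl were called in TRAIL- as well, and Cst3 was called lower in both, so that 3 of the 10 genes were called in TRAIL+ and 6 in TRAIL-. With TMM scaling 1 gene (lower) was called in TRAIL+, with 2.55% of genes higher and 15.2% lower, and 2 (1 higher and 1 lower) in TRAIL-, with 15.8% and 27.3%. The ratio of protease to Cst3 in these clusters was 1.84 times the naive value in TRAIL+ (1.80 to 1.87) and 2.30 times in TRAIL- (2.17 to 2.43).

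Monocyte-like barcodes, named from monocyte markers, shared several proteases with microglia-like barcodes but held little Cst3. The class had 19, 20, 227 and 131 barcodes. The EAE libraries had 1457 (TRAIL-) and 3049 CPM (TRAIL+) of Cst3, which is 0.152 (0.141 to 0.163) and 0.202 (0.190 to 0.214) times the microglia-like level of the same library. Ctsc was the gene called higher than in microglia, at 2095 CPM in TRAIL- and 2280 CPM in TRAIL+, 1.64 (1.4998 to 1.80) and 2.10 (1.95 to 2.26) times. Lgmn (0.224 and 0.437 times), Ctsd (0.249 and 0.510 times) and Ctsl (0.252 and 0.489 times) were called lower in both libraries. Ctss was 0.718 times the microglia-like level in TRAIL- and 1.13 times in TRAIL+, and Ctsb 0.759 and 1.31 times; with TMM the Ctss difference in TRAIL+ was -0.01 on the log2 scale. Thus 1 gene was called higher and 4 lower in each library, with 27.7% of genes called higher and 25.1% lower in TRAIL- and 27.2% and 25.3% in TRAIL+ (20.3% and 33.1% there with TMM).

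The protease to Cst3 ratio of monocyte-like barcodes in EAE was 9.31 (8.69 to 9.996) in the TRAIL- library and 6.76 (6.36 to 7.20) in the TRAIL+ library. Cst3 was 2.09 times (1.92 to 2.29) and Ctsd 2.47 times (2.21 to 2.77) higher in the TRAIL+ than in the TRAIL- monocyte-like sum, and 5 of the 10 genes were called higher, against 14.5% of genes higher and 17.8% lower. The summed microglia markers were 3.62 times higher there too, at 10290 against 2846 CPM, in a library made up of 89.9% microglia-like barcodes; their part in the gate difference was not tested. In naive mice the ratio was 1.77 (1.48 to 2.11) and 1.09 (0.937 to 1.28), from the 19 and 20 barcodes named above, and no level is compared from them.

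**Figure D3:**
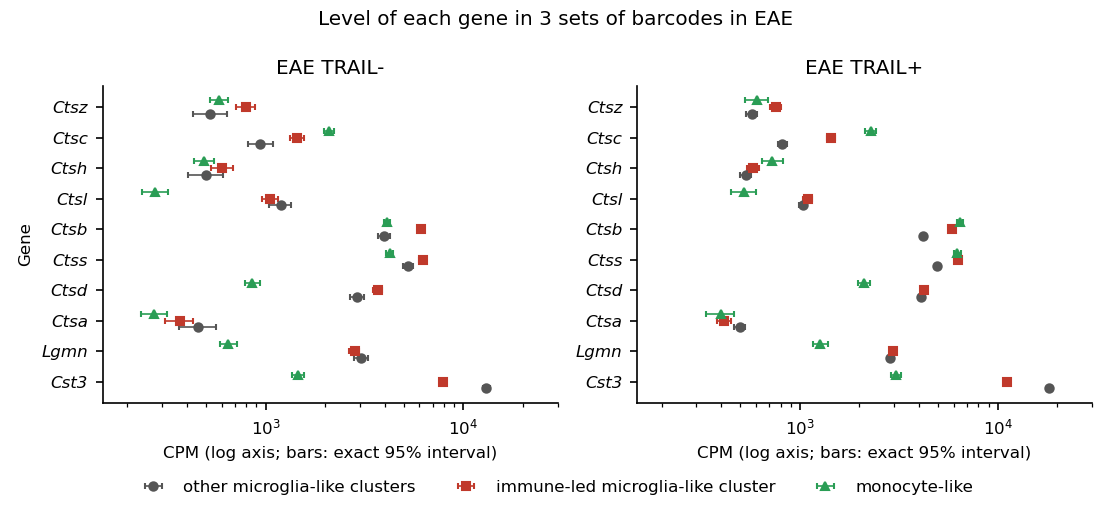
CPM (horizontal log axis) of each gene (vertical axis) in EAE TRAIL- (left) and EAE TRAIL+ (right) for microglia-like barcodes outside the immune-led cluster, the immune-led cluster, and monocyte-like barcodes, with exact Poisson 95% intervals. Cst3 is lower at each step in that order, from 13068 to 7890 to 1457 CPM on the left and from 18161 to 11189 to 3049 CPM on the right, while Ctsc is higher at each step, from 941 to 1441 to 2095 and from 816 to 1434 to 2280.

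Border macrophage-like barcodes were named from markers of the macrophages of the meninges and vessel walls. They numbered 61 in naive TRAIL+ and 19 or fewer in each other library. In naive TRAIL+ their Ctsc was 3058 CPM, 4.62 times (4.04 to 5.26) the microglia-like level, and their Ctsb was 7998 CPM, 2.10 times (1.94 to 2.28). Cst3 was 6823 CPM, and the microglia-like level was 4.201 times (3.87 to 4.57) higher. Ctss (2.96 times), Ctsd (2.70 times), Ctsl (1.88 times), Lgmn (1.72 times) and Ctsz (1.63 times, 1.01 to 2.80) were higher in microglia-like barcodes as well. So 6 genes were called higher and 2 lower in microglia-like than in border macrophage-like barcodes, with 22.9% of genes higher and 31.2% lower (48.4% and 13.2% with TMM, where Ctsb missed the call). Summed protease CPM of microglia-like over border macrophage-like barcodes was 0.999 (0.947 to 1.05), within counting error of 1, and the protease to Cst3 ratio was 2.48 (2.25 to 2.74) in border macrophage-like and 0.590 in microglia-like barcodes. In EAE TRAIL+ it was 6.74 (5.42 to 8.47) in border macrophage-like barcodes, from 19 barcodes and 94 Cst3 UMIs.

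**Figure D4:**
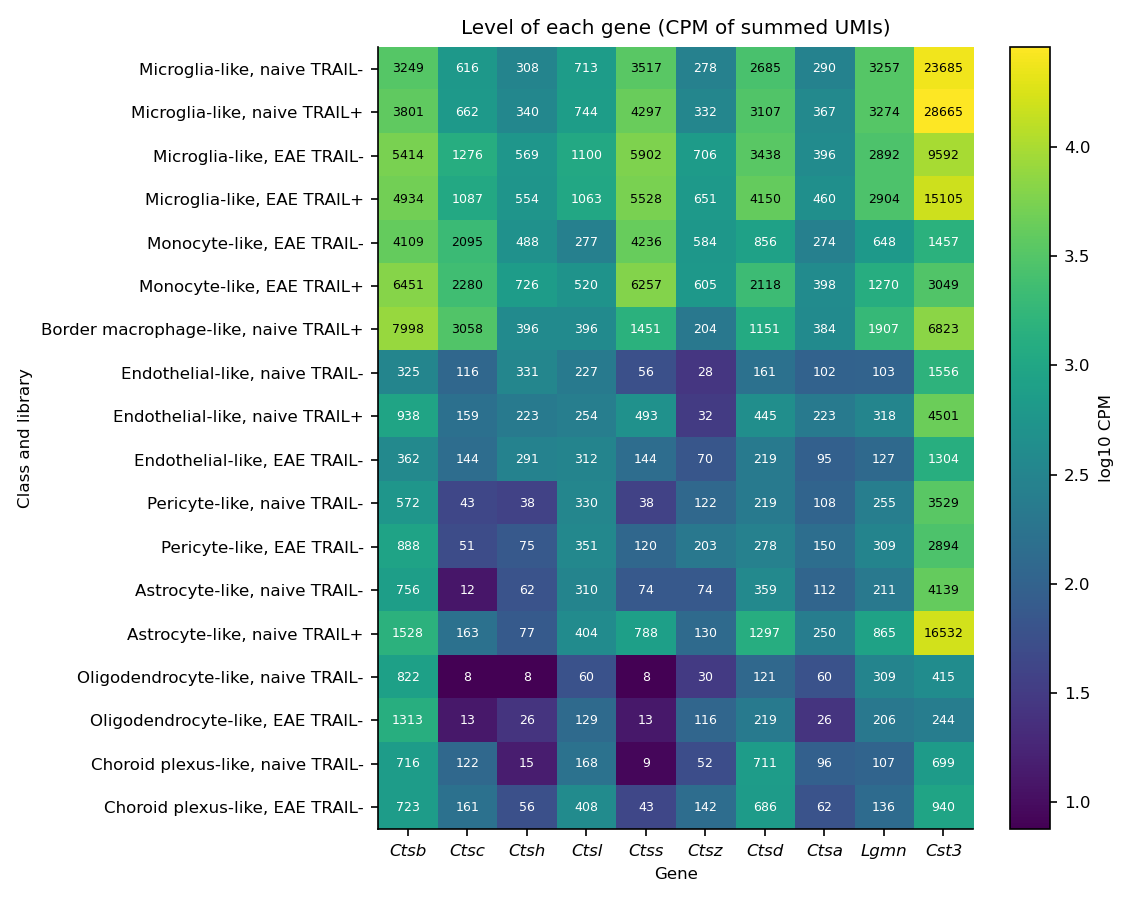
CPM of each gene (columns, printed in the cells and coloured by log10 CPM) in each class and library (rows) with at least 30 barcodes. The highest Cst3 values are 23685 and 28665 CPM in naive microglia-like barcodes and 16532 CPM in astrocyte-like barcodes of naive TRAIL+, and Ctss passes 1000 CPM only in microglia-like, monocyte-like and border macrophage-like rows.

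Outside the phagocytes, Ctss was at most 788 CPM in sums of 30 or more barcodes. RNA free in the droplets keeps its genes in the ratio of its source, so UMIs of each gene were set beside UMIs of the microglia markers. In microglia-like barcodes of naive TRAIL- there were 0.102 Ctss UMIs per microglia marker UMI. Endothelial-like barcodes of that library had 0.0945, and pericyte-like barcodes 0.0623, with the markers at 598 and 617 CPM. Ctss in those 2 classes (56.5 and 38.4 CPM) was therefore at or under the level that goes with the microglia markers. The source of these Ctss UMIs was not tested. With barcodes thinned to 500 UMIs, 1.296% of endothelial-like barcodes (1.99% unthinned, median 898 UMIs) had a Ctss UMI, against 76.4% of microglia-like barcodes (93.7% unthinned, median 1508 UMIs).

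Ctsh stood apart from the other proteases in endothelial-like barcodes. Its level in naive TRAIL- was 331 CPM (369 UMIs) in endothelial-like and 308 CPM in microglia-like barcodes, a ratio of microglia to endothelial of 0.931 (0.767 to 1.13). Per microglia marker UMI there were 0.553 Ctsh UMIs in endothelial-like and 0.00894 in microglia-like barcodes. Endothelial-like barcodes gave 63.2% of the Ctsh UMIs of that library, against 3.22% of its Ctss UMIs. The other 9 genes were called higher in microglia-like barcodes, from 2.84 times for Ctsa to 62.3 times (48.5 to 81.4) for Ctss, while 29.2% of all genes were called higher and 37.4% lower. In EAE TRAIL-, Ctsh was 291 CPM in endothelial-like barcodes, 0.879 times (0.727 to 1.06) the naive level.

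Against pericyte-like barcodes all 10 genes were called higher in microglia-like barcodes of naive TRAIL-, with 30.5% of all genes called higher and 42.3% lower (41.02% and 31.5% with TMM). The smallest ratios were those of Ctsl (2.16, 1.78 to 2.64), Ctsz (2.28) and Ctsa (2.67). Pericyte-like barcodes held 3529 CPM of Cst3 and 572 CPM of Ctsb, with 5.72 Cst3 and 0.927 Ctsb UMIs per microglia marker UMI, against 0.688 and 0.0943 in microglia-like barcodes. All 10 genes were called higher than in oligodendrocyte-like barcodes, with 37.0% of genes higher and 41.1% lower (49.8% and 28.1% with TMM), and likewise against choroid plexus-like barcodes, with 36.8% and 42.7% (46.9% and 32.8%). Ctsb was the protease with most UMIs in oligodendrocyte-like barcodes (109 of 189 protease UMIs, 822 CPM), where Ctss, Ctsc and Ctsh had 1 UMI each. Choroid plexus-like barcodes had 711 CPM of Ctsd and 716 CPM of Ctsb, and 3 UMIs of Ctss. The protease to Cst3 ratio was 0.489 (0.448 to 0.534) in pericyte-like, 0.932 (0.870 to 0.998) in endothelial-like, 2.85 (2.46 to 3.32) in choroid plexus-like and 3.44 (2.53 to 4.73) in oligodendrocyte-like barcodes of naive TRAIL-. Neighbours in that order did not overlap in their intervals, except choroid plexus-like and oligodendrocyte-like, where the latter rests on 55 Cst3 UMIs.

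Astrocyte-like barcodes, the cells named by the labels, could be described in naive mice, with 143 barcodes in TRAIL+ and 35 in TRAIL-; there were 3 in EAE TRAIL- and 8 in EAE TRAIL+. In naive TRAIL+ they held 16532 CPM of Cst3, and microglia-like barcodes of that library had 1.73 times (1.68 to 1.79) more. Cst3 per microglia marker UMI was 2.16 in astrocyte-like and 0.773 in microglia-like barcodes, and after thinning to 500 UMIs 91.6% of astrocyte-like barcodes had a Cst3 UMI (96.5% unthinned, median 1249 UMIs). Ctss went with the markers instead, at 0.103 against 0.116 per marker UMI. So did Ctsc (0.0214 against 0.0179) and Ctsh (0.0101 against 0.00917), while the other proteases had more UMIs per marker UMI than in microglia-like barcodes. The source of the Ctss, Ctsc and Ctsh UMIs was not tested. 9 of the 10 genes were called higher in microglia-like barcodes, all but Ctsa at 1.47 times (1.11 to 1.98), with 33.1% of genes higher and 37.4% lower (62.0% and 17.2% with TMM, where Ctsa was called too). In TRAIL-, Cst3 was 4139 CPM (334 UMIs). The protease to Cst3 ratio was 0.333 (0.311 to 0.356) in TRAIL+ and 0.476 (0.392 to 0.577) in TRAIL-. In TRAIL+ barcodes without any microglia marker UMI it was 0.136 (0.107 to 0.171).

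**Figure D5:**
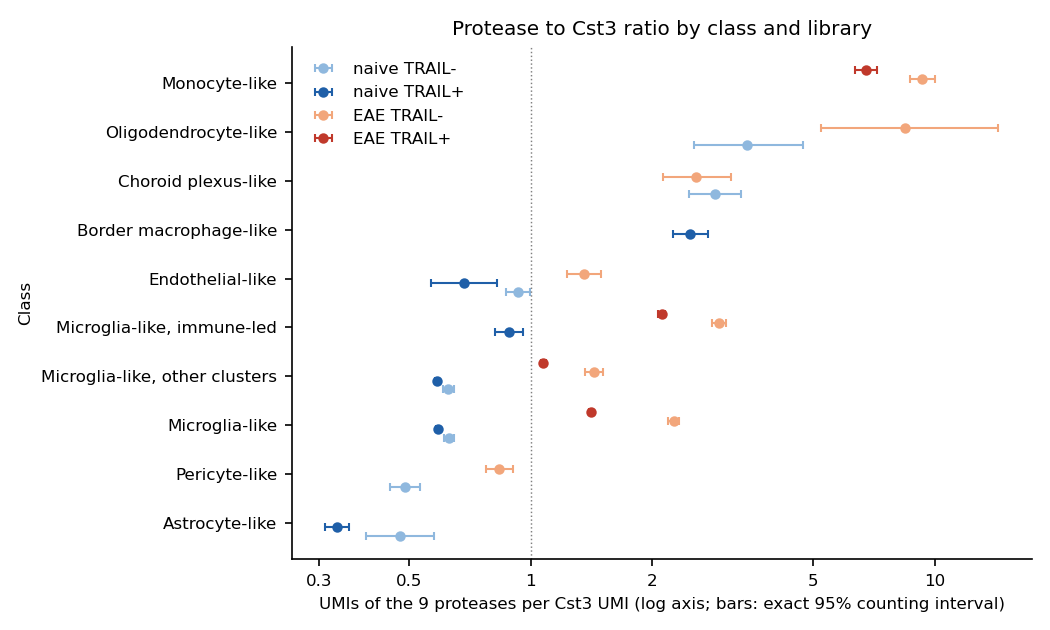
UMIs of the 9 proteases per Cst3 UMI (horizontal log axis) in each class (vertical axis) and library with at least 30 barcodes, with exact 95% counting intervals as bars; the dotted line marks a ratio of 1. Microglia-like barcodes lie at 0.630 and 0.590 in naive and 2.26 and 1.41 in EAE libraries, astrocyte-like barcodes at 0.476 and 0.333, and monocyte-like barcodes of EAE at 9.31 and 6.76.

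The vascular classes could be compared between conditions in TRAIL-. In endothelial-like barcodes (1157 naive, 498 EAE) the protease to Cst3 ratio was 0.932 in naive and 1.35 (1.23 to 1.49) in EAE, 1.45 times higher (1.29 to 1.63). Ctss (56.5 to 144 CPM, 2.56 times, 1.82 to 3.61) and Ctsz (27.8 to 69.5 CPM, 2.50 times, from 31 and 39 UMIs) were called higher and none lower; of the 9 genes that averaged 50 CPM or more, which leaves out Ctsz, 1 was called, with 9.41% of 3644 genes higher and 12.4% lower (4.65% and 24.5% with TMM). In pericyte-like barcodes (519 naive, 468 EAE) the ratio was 0.489 and 0.838 (0.775 to 0.906), 1.71 times higher (1.53 to 1.92). Ctsb (572 to 888 CPM, 1.55 times, 1.33 to 1.82), Ctss (3.12 times, 1.79 to 5.71), Ctsh (1.96 times, from 17 and 37 UMIs) and Ctsz (1.66 times, 1.18 to 2.36) were called higher, of 9 genes that averaged 50 CPM or more, with 10.3% of 3868 genes higher and 13.1% lower. Cst3 was 0.838 times (0.768 to 0.914) the naive level in endothelial-like and 0.820 times (0.763 to 0.882) in pericyte-like barcodes, neither called. The microglia markers were 1.27 and 1.20 times higher in these EAE sums. Per microglia marker UMI there were 0.190 Ctss UMIs in endothelial-like and 0.162 in pericyte-like barcodes of EAE, against 0.203 in microglia-like barcodes of that library. In barcodes without any of their UMIs the ratio was 1.27 times higher in endothelial-like (1.10 to 1.46) and 1.49 times in pericyte-like barcodes (1.31 to 1.71), and the log2 difference of Ctss in pericyte-like barcodes was 0.53 (-0.88 to 2.02), while that of Ctss in endothelial-like barcodes was 1.20 (-0.34 to 2.78).

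Choroid plexus-like (91 naive, 41 EAE) and oligodendrocyte-like barcodes (79 and 35) of TRAIL- were less precise. The protease to Cst3 ratio of choroid plexus-like barcodes was 0.901 times the naive value in EAE, an interval (0.710 to 1.14) that spans 1. Ctsl was 168 CPM in naive and 408 CPM in EAE choroid plexus-like barcodes, 2.43 times (1.68 to 3.51); of the 8 genes that averaged 50 CPM or more there, 2 were called higher (Ctsl and Ctsz) and 1 lower (Ctsa), in a comparison where 18.5% of genes were called higher and 19.9% lower (11.6% and 25.7% with TMM). In oligodendrocyte-like barcodes Ctsb was 822 and 1313 CPM, 1.60 times (1.21 to 2.11); of the 6 genes that averaged 50 CPM or more, 4 were called higher (Ctsb, Ctsd, Ctsl and Ctsz) and 2 lower (Lgmn and Cst3), with 27.1% of genes higher and 29.9% lower (21.9% and 35.2%), and the protease to Cst3 ratio of 3.44 in naive and 8.42 (5.22 to 14.4) in EAE mice rests on 55 and 19 Cst3 UMIs.

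Related genes were listed in 4 groups, chosen with earlier results of these data known, and those of at least 50 CPM were compared in microglia-like barcodes between EAE and naive mice. Of 8 other cathepsins, 2 were measured, the cysteine cathepsins Ctsf and Ctso. Ctso was called lower in TRAIL+ (92.4 to 60.7 CPM, 0.657 times) and both were lower in TRAIL- (Ctsf 0.602 times, 0.419 to 0.861; Ctso 0.559 times, 0.330 to 0.934). Of 12 other cystatins and serpins, the intracellular cystatin Cstb was measured and called higher in both gates. Over all genes compared, 8.54% were called higher and 5.51% lower in TRAIL+, and 19.1% and 21.5% in TRAIL-. Cstb had 61.5 and 112 CPM in naive and EAE TRAIL+, 1.83 times (1.53 to 2.19), and 63.5 and 165 CPM in TRAIL-, 2.59 times (1.72 to 3.98). The direction for this intracellular cystatin was opposite to that of the secreted Cst3.

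Of 22 other lysosomal hydrolases, 18 were measured in TRAIL+, with 3 called higher, 1 lower and a median log2 ratio of 0.15, and 17 in TRAIL-, with 6 higher, 2 lower and a median of 0.08; over all genes 8.54% were called higher and 5.51% lower in TRAIL+, and 19.1% and 21.5% in TRAIL-. Gla (alpha-galactosidase A) was higher in both, at 2.84 times (2.22 to 3.67) in TRAIL+ and 4.03 times (2.29 to 7.57) in TRAIL-, and Gaa (acid alpha-glucosidase) was 1.51 times (1.23 to 1.85) higher in TRAIL+. Arsb (arylsulfatase B) was lower in both, at 0.443 (0.394 to 0.498) and 0.440 times (0.339 to 0.567). Of 17 genes of lysosomal sorting and activation, 13 were measured in each gate, with 2 called higher and 0 lower in TRAIL+ and 5 higher and 2 lower in TRAIL-. Cd74, the invariant chain cut by cathepsin S, had 110 CPM in naive and 2390 CPM in EAE TRAIL+ (21.7 times, 19.5 to 24.3), and 121 and 2946 CPM in TRAIL- (24.3 times, 18.8 to 31.9). Ifi30, the lysosomal thiol reductase of antigen processing, was 2.48 (2.21 to 2.78) and 4.999 times (3.77 to 6.74) higher. Npc2, the lysosomal cholesterol carrier, was called higher in TRAIL- alone (1.80 times, 1.58 to 2.05), and the transcription factors Mitf (0.316 times) and Tfe3 (0.651 times) were lower there; the difference between gates was not tested. Among clusters of EAE TRAIL+, Cd74 was 7.97 times (7.47 to 8.50) and Cstb 1.84 times (1.49 to 2.28) higher in the immune-led cluster than in the others. Cd74 was named above as a leading gene of that cluster from these same barcodes. Its value there is therefore not separate support.

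The pattern of each gene over classes and libraries was described over 15 sums of at least 50 barcodes, which share libraries and differ in depth, with Pearson's r of log2(CPM + 1) and no test. Among 4008 genes, those most like Ctss were Mpeg1 (r = 0.984), Coro1a (0.984) and Tyrobp (0.983), and those most like Cst3 were Pde3b (0.963), Siglech (0.948) and Crybb1 (0.948). Ctsb was most like Fuk (0.997), Snx5 (0.953) and Mapkapk2 (0.946). Within the 10 genes, r ranged from 0.511 (Ctsc with Cst3) to 0.951 (Ctss with Ctsa). Cst3 was least like Ctsc, Ctsh (0.527), Ctsz (0.559) and Ctsb (0.569), and most like Ctsl (0.844) and Lgmn (0.808).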

How the data were processed

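The deposited files hold unscaled UMI counts, 1 column a gene and 1 row a barcode; the submitters' processing notes name Bowtie and GRCm38, and the sources used here name neither annotation nor use of strand. Barcodes with at least 500 UMIs and at most 20% mt- UMIs were kept. They were scaled to 10000, log-transformed and clustered in scanpy 1.11.5 (2000 variable genes, 30 components, 15 neighbours, Leiden resolution 1). None of the 10 genes, the 4 related lists or the mt- genes entered the clustering. Clusters were named from marker lists: the list with most members among the 50 leading genes, with at least 3 among the first 100 and no other list ahead of it among the first 10. A second pass, whose rule (8 members among 50) was set after the data were seen, named the immune-led microglia-like cluster; a cluster of 27 barcodes led by Fabp7 stayed unnamed. Scrublet called 4 to 41 barcodes of a library as doublets, 4 in each TRAIL+ library, too few to take the caller as having worked; they were kept.

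UMIs were summed per class and library. Levels have exact Poisson intervals, ratios of CPM and of protease to Cst3 exact Clopper-Pearson intervals, and ratios of such ratios log-normal ones, all at 95%, for counting error and independent UMIs. The comparison script was tested on simulated data. Alternatives used edgeR 4.0.16 (TMM) and DESeq2 1.42.0 (size factors). Named were all 10 genes, up to 4 genes of each other list in each direction, and the 3 genes most like Ctss, Ctsb and Cst3. Genes and lists were chosen with earlier results of these data known. Protein sequences were not used here. The values of 1 gene of the related lists are not reported here.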

Additional observations from a re-analysis of the deposited data

How the results depend on the processing

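No paired analysis was possible because each group has 1 library, and no replicate could be left out for the same reason. Calls of the 10 genes and protease to Cst3 ratios were recomputed with at least 1000 UMIs per barcode, at most 10% mt- UMIs, doublet calls removed, Leiden resolutions 0.5 and 2, classes set barcode by barcode, barcodes weighted equally, other scalings, no filter on low counts, a 2-fold call, and without barcodes holding a microglia marker UMI; leaving out microglia-like barcodes with under 1% marker UMIs was added after the data were seen. Of the main results under these settings 92 stayed the same and 11 moved. A count was the same if within 1.5-fold, and a ratio or log2 difference if within the counting interval of the reported value. Dropping the filter on low counts could not move any result (5 main and 226 other values). Leaving out barcodes with a microglia marker UMI left microglia-like sums untouched, and the 2-fold call left log2 differences untouched. The numbers that stayed the same therefore overstate stability. The EAE to naive ratio of protease to Cst3 in microglia-like barcodes was 2.31 (TRAIL+) and 3.43 (TRAIL-) with barcodes weighted equally, 3.42 in TRAIL- without Ctss, and 2.58 and 4.26 with the 6 papain-like genes alone. With TMM, 2 genes were called between EAE and naive TRAIL+ and 5 between naive TRAIL+ and TRAIL-. At 2-fold, 0 genes were called between EAE and naive in TRAIL+ and 3 in TRAIL- (Ctsc and Ctsz higher, Cst3 lower). Between TRAIL+ and TRAIL- in EAE, 0 were called at 2-fold. With at least 1% marker UMIs, 0 were called in that last comparison, in place of 1. The share of all genes called at 2-fold is not given here. The 2-fold counts are therefore not compared between gates. One value turned: Ctss between EAE and naive oligodendrocyte-like barcodes, from 1 UMI in each, was -0.47 on the log2 scale with barcodes weighted equally. Of the other values, 3094 stayed the same and 347 moved. DESeq2 size factors moved the median of all genes in the microglia-like condition comparisons from -0.05 to -0.01 (TRAIL+) and from -0.09 to -0.05 (TRAIL-). Depth limits what can be said of Ctss, Ctsc and Ctsh in oligodendrocyte-like barcodes and of every class with fewer than 30 barcodes.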

Other observations

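The gene whose pattern was most like that of Ctsb was Fuk, the fucose kinase gene. Fuk UMIs were 4.21% (TRAIL-) and 4.64% (TRAIL+) of Ctsb UMIs in naive mice and 4.10% and 4.04% in EAE. By class the share was 4.198% in microglia-like, 3.95% in monocyte-like, 5.75% in endothelial-like and 6.70% in choroid plexus-like barcodes. Of 1312 barcodes with a Fuk UMI, 30 had no Ctsb UMI, while 2715 of all 7899 kept barcodes had none. The annotated transcripts of the 2 genes share 0 stretches of 40 bases. The cause of the share was not tested.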
